A study of Homo sapiens with 16 samples.

Results

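The MCM genes described here are the 8 genes MCM2, MCM3, MCM4, MCM5, MCM6, MCM7, MCM8 and MCM10, chosen by gene symbol from a table of 13148 genes, and all 8 were in it. They were followed in 293S, a human cell line of the HEK293 family, either exposed to 1 mM sodium arsenite for 30 minutes or left untreated as the control. Each treatment was run on a sucrose gradient, in which mRNAs bound by more ribosomes sediment further, and total RNA from 8 fractions per gradient was sequenced. Each treatment and fraction was sequenced as 1 library, so the 16 libraries are 16 groups without replicates, and no difference between the treatments could be tested. The deposited values are shares: for each gene and gradient, the part of its total that lay in each of the 8 fractions. How abundant a transcript was, and how deeply a library was read, cannot be taken from them, so no counting interval is given and the cell line could not be checked by its markers. Whether fraction 1 was the top or the bottom is not in the labels.

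MCM2 to MCM7 encode the 6 subunits of the ring-shaped helicase that unwinds DNA at replication forks. The ring is loaded onto origins in G1 phase as an inactive double hexamer and is switched on in S phase, when CDC45 and the GINS complex join it. MCM8 is a relative that works with MCM9 in homologous recombination, and MCM10 is a replication initiation factor that binds the active helicase and, despite its name, has no helicase domain of the MCM kind. An mRNA that carries many ribosomes sediments as a large polysome, and arsenite is widely used to set off a stress response in which most translation initiation stops.

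MCM genes are textbook targets of the E2F transcription factors, so their promoters were searched for E2F-type motifs, a feature that played no part in the choice of genes. The motifs were TTTCCCGC, TTTCGCGC, TTTGCCGC and TTTGGCGC on either strand, in the window from 250 bases before to 50 bases after the annotated start of each gene (RefSeq, GRCh38.p14). An entry was found for 6 of the 8 genes, all but MCM4 and MCM5. A match was present in 5 of these 6, all but MCM10, whereas 5.27% of the 9804 promoters of genes in the profile table and 3.33% of all 27305 promoters held one. The 8 sites are printed here, 30 bases each in the direction of the gene, with the matching bases in capitals; where both strands matched with overlap, as at the MCM2 site and both MCM6 sites, the capitals cover the pair. Coordinates are GRCh38.p14, and distances are given from the start to the first capital. These letters describe the promoters and were not tested for binding.
MCM2 (chr3:127598404-127598433, plus strand, first capital at 3): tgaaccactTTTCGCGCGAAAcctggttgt
MCM3 (chr6:52284898-52284927, minus strand, first capital at -174): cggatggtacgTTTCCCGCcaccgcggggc
MCM3 (chr6:52284728-52284757, minus strand, first capital at -4): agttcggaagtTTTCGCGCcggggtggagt
MCM6 (chr2:135876575-135876604, minus strand, first capital at -152): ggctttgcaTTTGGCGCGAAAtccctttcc
MCM6 (chr2:135876513-135876542, minus strand, first capital at -90): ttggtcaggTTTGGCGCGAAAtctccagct
MCM7 (chr7:100101566-100101595, minus strand, first capital at -187): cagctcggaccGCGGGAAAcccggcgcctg
MCM7 (chr7:100101388-100101417, minus strand, first capital at -9): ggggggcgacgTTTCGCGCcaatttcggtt
MCM8 (chr20:5950667-5950696, plus strand, first capital at 27): ggatcactgaaGCGCCAAAaaagaatttag

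In untreated cells, the mRNAs of the 6 core helicase subunits had similar profiles, each with its tall peak in fraction 7. Fraction 7 was the largest fraction for all 6, and it held between 38.2% (MCM7) and 51.3% (MCM2) of their totals, against a median of 7.76% and an upper quartile of 16% over all genes. Only 2.49% of all genes had as much in fraction 7 as MCM7, the lowest of the 6, and 14.9% of genes peaked there. MCM10 shared the peak in fraction 7, but at 25.3%, and the shares of MCM8 were largest in fractions 4 and 5, at 26.6% and 26.2%.

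In the control gradient, MCM2 had shares of 1.34%, 4.13%, 6.26%, 5.90%, 7.27%, 14.2%, 51.3% and 9.63% in fractions 1 to 8. The control shares of MCM5 were 0.460%, 4.67%, 7.66%, 5.43%, 6.92%, 18.9%, 49.2% and 6.76%. MCM7 had 0.577%, 3.42%, 8.13%, 6.88%, 8.60%, 29.6%, 38.2% and 4.61%. All 3 mRNAs thus had most of their total in fractions 6 and 7, and MCM7 had the most of the 6 in fraction 6. MCM3, MCM4 and MCM6 lay between these, with 49.4%, 43.1% and 43.8% in fraction 7. MCM8, by contrast, had control shares of 2.23%, 3.53%, 12.8%, 26.6%, 26.2%, 16.9%, 8.97% and 2.87%, a broad hump in the middle of the gradient. The control shares of MCM10 were 3.71%, 4.4%, 10.9%, 14.5%, 17.9%, 15.3%, 25.3% and 7.98%, and it had the widest control profile of the 8, with a standard deviation of 1.84 fraction numbers against 1.60 for the median gene.

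**Figure D1:**
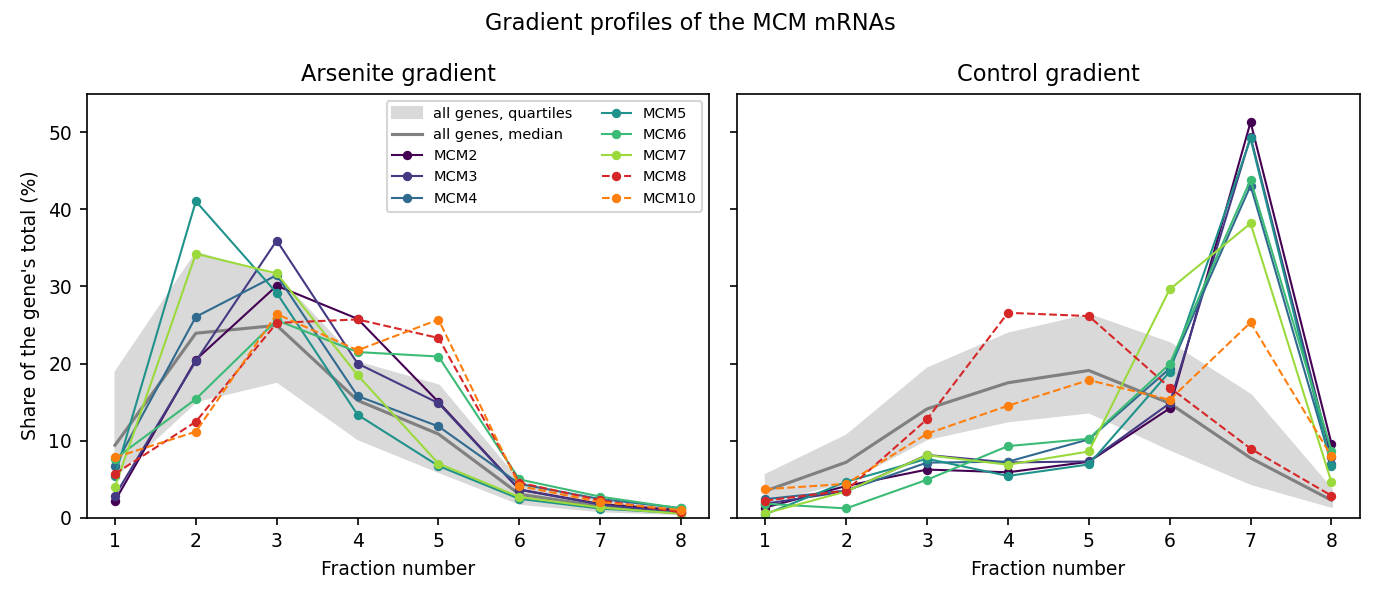
Share of each MCM gene's total (percent, vertical axis) in fractions 1 to 8 (horizontal axis) of the arsenite gradient (left) and the control gradient (right), 1 library per point, with the quartile band and median of all 13148 genes in grey. In the control gradient the solid lines of MCM2 to MCM7 peak in fraction 7 between 38.2% and 51.3%, while with arsenite they peak in fraction 2 or 3.

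Each profile was summed up by its position, the average of the fraction numbers with the shares as weights. Control positions of the 6 core mRNAs ran from 5.84 for MCM7 and 5.85 for MCM4 through 5.96 for MCM3, 6.01 for MCM5 and 6.04 for MCM6 to 6.10 for MCM2, a range of 0.25 fractions. The median over all genes was 4.54, with quartiles of 4.14 and 4.96, and 255 genes (1.94%) lay at or above MCM7. MCM10 lay at 5.25 and MCM8 at 4.72. With no replicate, the order within the core cannot be told from library noise. Leaving out fraction 7 brought the core down to positions between 4.95 and 5.28, still above the median gene (4.29) and above MCM10 (4.66) and MCM8 (4.49).

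Long coding sequences hold more ribosomes, and over 10 equal bins of genes by coding length the median control position was 4.14 in the shortest bin and 5.02 in the longest. All 8 MCM coding sequences were of similar length, from 2160 nt (MCM7, 719 amino acids) to 2715 nt (MCM2, 904 amino acids), and above the median of 1434 nt. MCM8, at 2523 nt, and MCM10, at 2628 nt, fell inside the range of the core. In the length bin from 2046 to 2571 nt, which holds MCM3, MCM5, MCM6, MCM7 and MCM8, the median control position was 4.70 with quartiles of 4.33 and 5.12. Of its 1232 genes, 15 lay at or above MCM6, 19 at or above MCM5, 28 at or above MCM3 and 43 at or above MCM7, but 592 at or above MCM8. Of the 1233 genes in the next bin, up to 3549 nt, 17 lay at or above MCM2, 59 at or above MCM4 and 307 at or above MCM10. The 6 core mRNAs thus lay far above the middle of genes with coding sequences like theirs, and MCM8 lay in the middle. The annotated mRNA of MCM8, at 7486 nt, was the longest of the 8, and the others ran from 2957 nt (MCM7) to 4183 nt (MCM4).

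**Figure D2:**
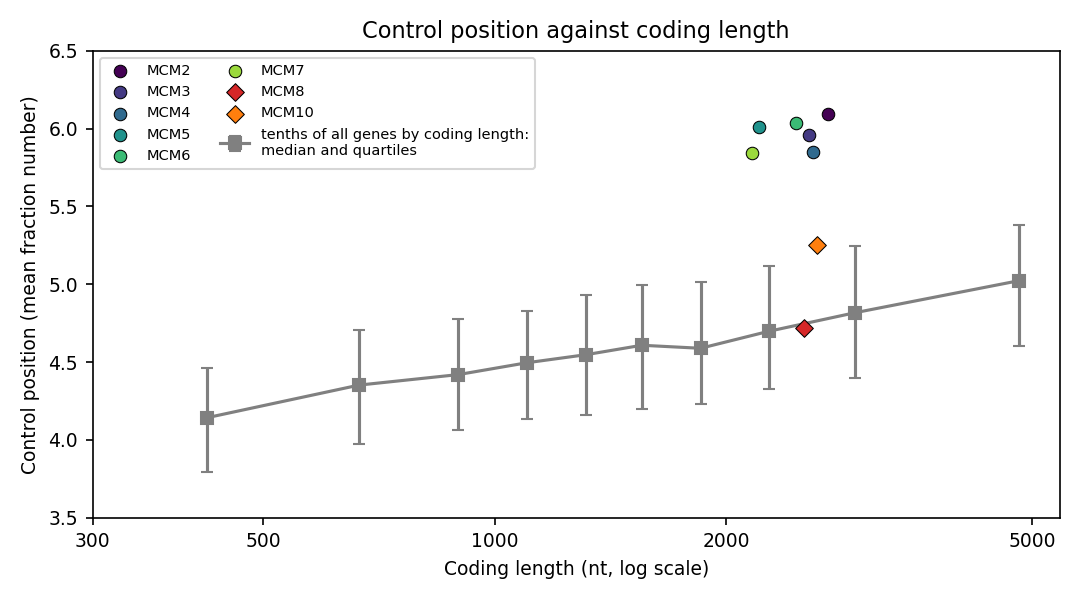
Control position (mean fraction number, vertical axis) against coding length (nt, log scale, horizontal axis) of the 8 MCM genes, with the median and quartiles of each of 10 bins of all genes by coding length in grey. MCM2 to MCM7 sit between 5.84 and 6.10, above the quartile bars of their bins, and MCM8 at 4.72 sits near the median of its bin.

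With arsenite, the tall peak in fraction 7 was gone from all 6 core mRNAs, and most of their total lay in fractions 2 to 4. Fraction 7 held between 1.19% (MCM5) and 2.74% (MCM6) of their totals in the arsenite gradient, against 38.2% to 51.3% in the control gradient. Over all genes, the median share in fraction 7 was 1.47% with arsenite and 7.76% in the control. Among the 321 genes other than MCM genes with at least MCM7's share in control fraction 7, these medians were 1.96% and 42.1%. That group was formed after the values were seen, and its loss from fraction 7 was like that of the core. Fractions 5 to 8 together held 11% (MCM5) to 29.8% (MCM6) with arsenite and 79.4% (MCM3) to 82.7% (MCM6) in the control. The median gene had 16.4% and 53.9% in these fractions, so with arsenite the core mRNAs lay among the other genes, whereas in the control they had stood near the top.

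In the arsenite gradient, MCM2 had shares of 2.20%, 20.5%, 30.1%, 25.8%, 15%, 3.67%, 1.79% and 0.966% in fractions 1 to 8. The arsenite shares of MCM5 were 5.47%, 41.0%, 29.1%, 13.4%, 6.73%, 2.46%, 1.19% and 0.616%. MCM6 had 7.66%, 15.4%, 25.6%, 21.5%, 20.9%, 4.97%, 2.74% and 1.21%. The positions of the 6 core mRNAs lay further apart with arsenite than in the control, with ranges of 0.74 and 0.25 fractions. Without replicates, this difference cannot be told from library noise. MCM5 was concentrated in fraction 2, while MCM6 had about as much in fraction 5 as in fraction 4. Each core profile was itself narrower with arsenite, with standard deviations of 1.25 to 1.51 against 1.52 to 1.71 fraction numbers. The median gene had 1.38 and 1.60. MCM7 resembled MCM5, with 34.2% in fraction 2 and 7.03% in fraction 5. MCM3 and MCM4 had their largest shares in fraction 3, at 35.9% and 31.5%. MCM8 had arsenite shares of 5.71%, 12.5%, 25.3%, 25.7%, 23.3%, 4.56%, 2.28% and 0.702%. MCM10 had 7.83%, 11.2%, 26.4%, 21.7%, 25.7%, 4.13%, 2.04% and 1.00%, and both mRNAs were spread about evenly over fractions 3 to 5.

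MCM5 lay at position 2.90 with arsenite and 6.01 in the control, the largest shift of the 8, −3.11 fractions. MCM7 lay at 3.06 and 5.84 (−2.78), MCM4 at 3.29 and 5.85 (−2.56), MCM2 at 3.54 and 6.10 (−2.56), MCM3 at 3.45 and 5.96 (−2.51) and MCM6 at 3.65 and 6.04 (−2.39), each with the arsenite position first. MCM10 lay at 3.72 with arsenite and 5.25 in the control (−1.54), and MCM8 at 3.75 and 4.72 (−0.97). In the deposited shares, the 2 mRNAs that lay lowest in the control thus lay highest with arsenite, but after median-of-ratios size factors MCM6 (5.10), MCM4 (4.97) and MCM2 (4.96) lay above both MCM10 (4.94) and MCM8 (4.94) with arsenite. Nearly all genes lay lower with arsenite, with a median shift of −1.46, and how fractions were scaled to one another is unknown here. The part of its profile that a gene kept, taken as the overlap of its arsenite and control profiles, was 29.2% to 38.6% for the core, 58.6% for MCM10 and 75.1% for MCM8, against a median of 55.4% over all genes. After the size factors, which bring the typical gene to the same value in all libraries, the median shift was −0.23, that of the core genes −1.25 to −2.27, that of MCM10 −0.79 and that of MCM8 0.01.

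**Figure D3:**
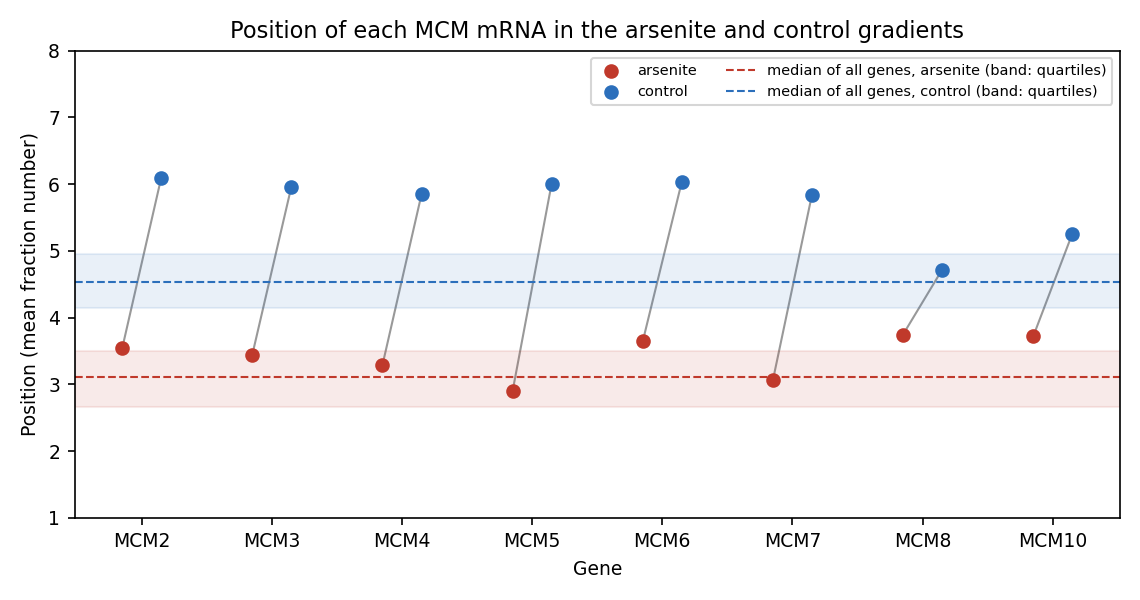
Position (mean fraction number, vertical axis) of each MCM mRNA in the arsenite gradient (red, left point of each pair) and in the control gradient (blue, right point), 1 value per gene and gradient, with the median (dashed) and quartile band of all genes. Control points of MCM2 to MCM7 lie at 5.84 to 6.10, above the control band, and their arsenite points lie at 2.90 to 3.65.

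Genes were therefore compared by the relative shift, which is the shift less the median shift of the table. The calls moved lower and moved higher were given to a gene when its relative shift reached 0.5 fractions in either direction and its sign held without any 1 of the 8 fraction numbers. All 6 core genes moved lower, where 24.0% of all genes moved lower and 23.6% moved higher. Their relative shifts were −1.65 for MCM5, −1.32 for MCM7, −1.10 for MCM4 and for MCM2, −1.06 for MCM3 and −0.93 for MCM6, with a median of −1.10. Neither MCM8 (0.48) nor MCM10 (−0.08) was called. MCM8 lay just under the threshold and passed it as moved higher without fraction 3 (0.69), and MCM10 was called lower after size factors (−0.56). The median of the core was 1.3 fractions below the median of MCM8 and MCM10, and every core gene lay below both of them. Without fraction 7, the relative shifts of MCM2 and MCM3 were −0.45 and −0.35, so that they were not called, the median of the core was −0.54 and its distance to MCM8 and MCM10 was 0.84 fractions. Without fraction 8 both genes missed the rule as well, at −1.0 and −0.98, because their sign did not hold with a further fraction left out.

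The shift contains the control position, and over all genes both had a Spearman correlation of −0.55, given as a description. All 6 core genes were in the highest of 10 bins of genes by control position, where 64.9% of genes moved lower and the median relative shift was −0.73 (quartiles −1.10 and −0.34). Among the 249 genes other than MCM genes that lay at or above MCM7 in the control, a group formed after the values were seen, 194 (77.9%) moved lower, none moved higher, and the median was −0.99 with quartiles of −1.37 and −0.60. The relative shifts of MCM2, MCM3, MCM4, MCM6 and MCM7 fell within these quartiles, and only MCM5 lay below them. MCM10 had a relative shift of −0.08 in a control-position bin with a median of −0.42 and an upper quartile of −0.03. MCM8 lay above the upper quartile of its own bin, 0.22, whose median was −0.15.

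**Figure D4:**
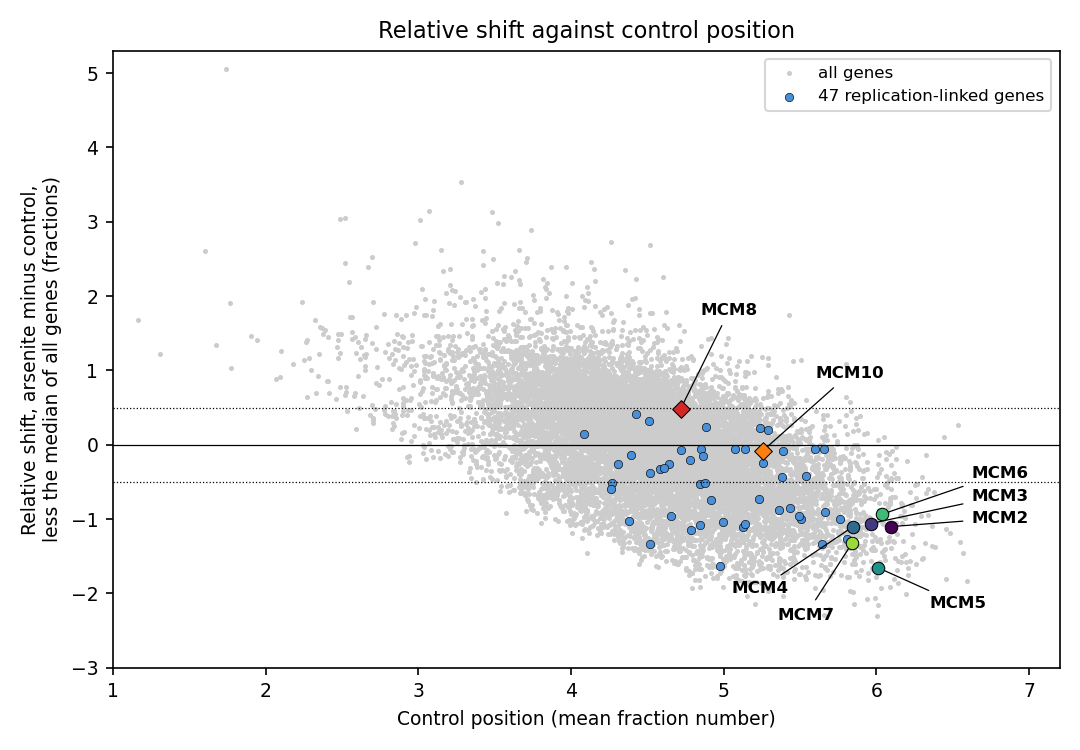
Relative shift (arsenite minus control position, less the median of all genes, in fractions, vertical axis) against control position (mean fraction number, horizontal axis) for all genes (grey), 47 replication-linked genes (blue) and the 8 MCM genes (labelled), with dotted lines at the threshold of 0.5 fractions in each direction. MCM2 to MCM7 lie together at the right, at relative shifts of −1.65 to −0.93, while MCM8 and MCM10 lie at 0.48 and −0.08.

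For each fraction number, the log2 ratio of shares, arsenite over control, was taken with 1 percentage point added to each. In fraction 7 the core genes had ratios of −4.51 (MCM5) to −3.58 (MCM6) with a median of −4.14, against a median of −1.86 over all genes, −1.61 for MCM8 and −3.11 for MCM10. In fraction 2 the core median was 2.73 (2.07 to 2.99), against 1.5 over all genes, 1.57 for MCM8 and 1.17 for MCM10. The core median share in fraction 2 was 23.3% with arsenite and 3.49% in the control, against 23.9% and 7.21% over all genes. The core ratios were positive in fractions 1 to 4 and negative in fractions 6 to 8. In fraction 4 they ran from 1.02 to 1.96, whereas MCM8 had −0.05 and the median gene −0.18. After size factors the core median was −1.72 in fraction 7 and 1.34 in fraction 2 where all genes had −0.06 and −0.08, and it was positive, at 0.43, in fraction 6, where the deposited shares gave −1.86. The ratio of MCM8 in fraction 7 was 0.23 after size factors and that of MCM10 −0.92.

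**Figure D5:**
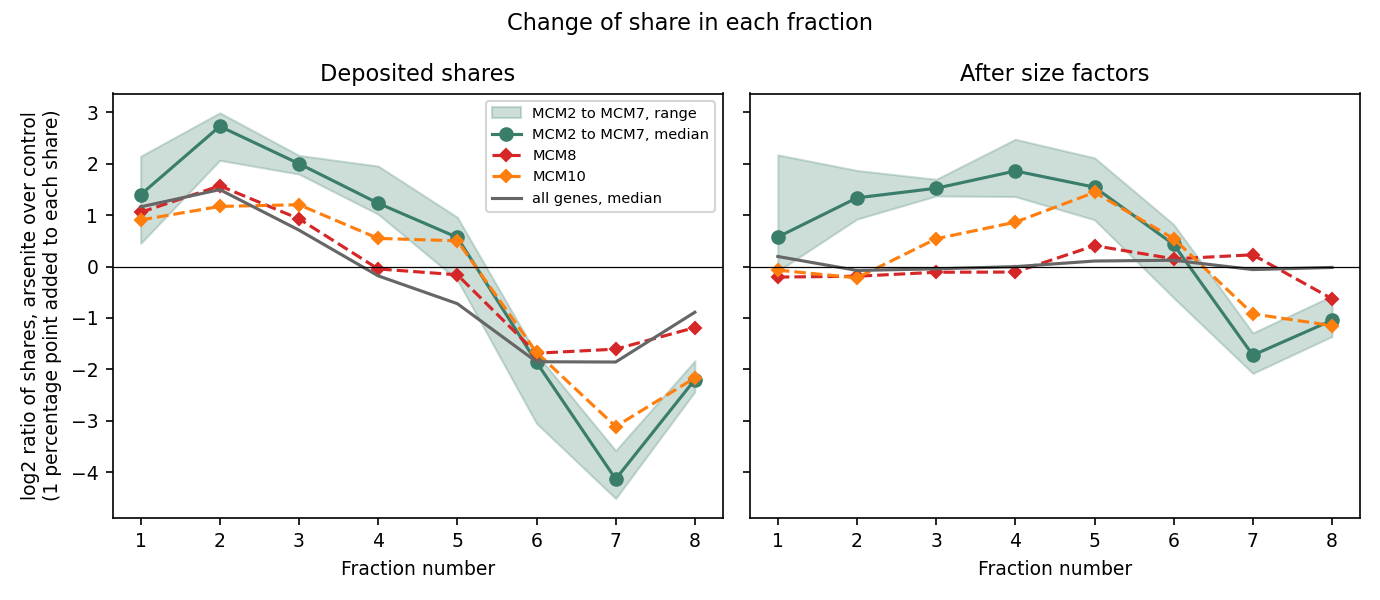
log2 ratio of shares, arsenite over control, with 1 percentage point added to each share (vertical axis), in fractions 1 to 8 (horizontal axis), from the deposited shares (left) and after size factors (right); the green line and band are the median and range of MCM2 to MCM7, and grey is the median of all genes. The core median reaches −4.14 in fraction 7 of the deposited shares and −1.72 after size factors, below MCM8 in each panel.

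Similarity within the family was measured as a profile distance, the summed absolute difference of shares, scaled so that 0 means identical and 100 means no overlap. The 15 pairs of core genes had distances of 4.35 to 19.6 in the control gradient, with a median of 11.2, whereas the 12 pairs of a core gene with MCM8 or MCM10 had 21.8 to 49.7, so the kinds of pair did not overlap. In the arsenite gradient the ranges did overlap, at 6.54 to 29.2 for the core pairs and 5.99 to 32.6 for the mixed pairs. MCM6 came closest to the outer 2 genes there, at 5.99 from MCM10 and 6.63 from MCM8, and it was farthest from MCM5, at 29.2. MCM8 and MCM10 were 5.95 apart with arsenite and 23.8 apart in the control. Over both gradients MCM2 and MCM3 were the closest core pair, at 5.44. Subunits that touch in the ring, which runs MCM2, MCM6, MCM4, MCM7, MCM3 and MCM5, had a median distance of 13.8 over 6 neighbouring pairs, against 12.3 over the other 9 pairs. By gradient these medians were 15.8 and 15 with arsenite and 8.97 and 11.4 in the control, with overlapping ranges in both.

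The genes with profiles nearest to the mean of the 6 core genes, among the 11625 genes with no share of 0 and outside the family, were ESYT1 at a distance of 3.58, PWP2 at 4.15, CLSTN3 at 4.68, ACTN1 at 4.71 and HSPA9 at 4.73 over the 16 libraries. ESYT1 encodes an extended synaptotagmin, PWP2 a factor of small ribosomal subunit assembly, CLSTN3 a calsyntenin, ACTN1 an alpha-actinin and HSPA9 the HSP70 chaperone of mitochondria. They had 43.8% to 45.6% of their totals in control fraction 7 and relative shifts of −1.29 to −1.07. Among the core genes themselves, MCM4 was nearest to that mean, at 3.87, and MCM6 farthest, at 11.1. Ranked by this distance among genes with no share of 0, MCM4 was at 2, MCM3 at 27 and MCM2 at 76. MCM7 was at 134, MCM5 at 140 and MCM6 at 174, although each core gene is itself part of the mean. Many genes outside the family were thus nearer to the mean than most core genes. Nearest to MCM8 were PRSS12, SOS1, WWC2, NR2C2 and CYLD, at 4.2 to 6.51, with relative shifts of 0.49 to 0.70; SOS1 activates Ras, NR2C2 is a nuclear receptor and CYLD a deubiquitinase. Of the 5 genes nearest to MCM10, 4 are given here, KIDINS220, SIN3A, FANCI and CNOT1, which were at 4.56 to 4.84 and had relative shifts of −0.13 to 0.05; SIN3A is a corepressor scaffold, FANCI a Fanconi anaemia repair protein and CNOT1 the scaffold of a deadenylase complex. The likeness is a measure over 16 libraries without replicates. All these neighbours were picked by these same shares, so their like shares and relative shifts carry no further information.

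Other genes of DNA replication were taken from 4 lists, of which 47 of 48 genes were in the table. Among these 47, 23 moved lower (48.9%, against 24.0% of all genes), none moved higher and 24 were not called, with a median relative shift of −0.43. Their median control position was 4.92, above the 4.54 of all genes, so the 24.0% is not a background matched for control position. After size factors 26 moved lower (55.3%, against 26.4% of all genes) and 2, TOPBP1 and DBF4, moved higher, against 28.7% of all genes. None of the 47 reached the lowest core control position of 5.84, which only 1.94% of all genes reached. The nearest of the 47, named after its value was seen, was RPA1, a subunit of the single-strand binding protein, at 5.80.

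Of the 9 genes that recognise origins and load the helicase, 4 moved lower (44.4%, against 24.0% of all genes). The median relative shift of the 9 was −0.43. Their median control position was 4.84, and in the control-position bin that holds it, from 4.69 to 4.87, 27.9% of genes moved lower. GMNN, the inhibitor of loading, lay lowest at −1.62, with positions of 1.89 with arsenite and 4.97 in the control, and CDT1, the loading factor that GMNN binds, was highest at −0.14 (0.06 after size factors). Of 10 genes that activate the helicase, 3 moved lower (30%, against 24.0% of all genes) and the median was −0.06. Without fraction 1, 1 of the 10 did, against 21.0% of all genes. The median control position of the 10, 4.79 over all fractions, fell in the same bin. CDC45, which joins the MCM ring in the active helicase, lay lowest at −1.11 with positions of 2.56 with arsenite and 5.13 in the control, whereas the initiation factor TOPBP1 was highest at 0.41. The 4 GINS genes were divided, with GINS2 moved lower at −1.03 and GINS1, GINS3 and GINS4 uncalled at −0.07 to −0.05.

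Of 24 genes of the polymerases, clamp and other replisome parts, 15 moved lower (62.5%, against 24.0% of all genes). The median relative shift of the 24 was −0.80. Their median control position was 5.20, in the control-position bin from 5.06 to 5.34, where 43.5% of genes moved lower. RPA3, the smallest subunit of the single-strand binding protein, lay lowest at −1.33; after size factors its relative shift was −1.98, but the sign did not hold in every fit that left out a fraction, so it was not called. RFC1, the large subunit of the clamp loader, was highest at 0.24 (−0.08 after size factors). PCNA, the sliding clamp, lay at 3.08 with arsenite and 5.49 in the control and moved lower (−0.96). Of 4 genes whose products bind MCM proteins or work with MCM8, 1 moved lower (25%, against 24.0% of all genes). MCMBP, which binds MCM subunits, was that gene at −0.73, and MCM3AP, which encodes an mRNA export factor, had −0.06. The median relative shift of the 4 was −0.22. Their median control position, 5.15, fell in the same bin as that of the 24 genes. Without fraction 2, 0 of the 4 moved lower, against 19.5% of all genes, and after size factors 2 did, against 26.4%. MCM9, the partner of MCM8, lay at 3.57 with arsenite and 5.08 in the control. Its relative shift was −0.05 (−0.02 after size factors), it was not called, and it had 26.6% of its total in control fraction 7. These control values and the relative shift of MCM9 were nearer to those of MCM10 than to those of the core. The arsenite position of MCM9, however, lay inside the core range of 2.90 to 3.65. HROB, listed as C17orf53, a factor that acts with MCM8 and MCM9, had −0.38 and was called lower after size factors (−0.81).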

How the data were processed

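Per the labels' protocols, gradient fractions of 293S cells were extracted with Trizol and their total RNA was sequenced by a method called NSR; sample titles gave the groups. The authors deposited 1 table with 16 columns in the unit fraction, each the share of a gene's total in 1 fraction of a gradient; the 8 shares of a gene and gradient sum to 1 within 2.2e-15. Another 3 columns that the authors deposited are in the unit score and hold the position in each gradient and the difference; recomputed values matched within 8.9e-15. Per the file headers, values refer to exons of RefSeq genes, and the submitters' processing notes name hg19 as the build. The aligner, read counting, strand handling, gene filter and fraction scaling are each not given in the sources used, and depth is unknown. No filter was applied, and none of the 8 MCM genes had a share of 0.

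Position, shift, relative shift and calls are as defined in the text. Coding lengths came from GENCODE release 29 by symbol, 1 protein-coding transcript per gene, and matched 12320 genes (93.7%). The profile distance is the sum of absolute share differences over the 16 libraries, in percentage points, divided by 4; within 1 gradient it is divided by 2. Besides the members, the rule named the genes of each replication list with the largest and smallest relative shift and the 5 genes nearest to each profile, of which 1 near MCM10 is not reported here; RPA1, PCNA, the GINS genes, MCM3AP, HROB and DBF4 were named after their values were seen. The code for the calls was run on simulated profiles with planted shifts as a check of the code, not of these data. Members and lists were chosen with earlier results of these data known. Alternatives were size factors over 11625 genes, 1 percentage point added to every share, leaving out each fraction, a median over genes with no 0, the 50% point, thresholds of 0.25 and 1 fractions, and pseudocounts of 0.1 and 10. Python 3.11.15, numpy 2.4.6, pandas 2.3.3 and scipy 1.17.1 were used.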

Additional observations from a re-analysis of the deposited data

How the results depend on the processing

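No paired analysis was possible because each treatment and fraction has 1 library. The number of MCM genes that moved lower was 6, ranged from 4 to 6 when each fraction was left out, was 7 with size factors, where MCM10 joined at −0.56 and 26.4% of all genes moved lower, and was 5 at a threshold of 1 fraction, which 9.33% of all genes passed. MCM8 met the rule for moved higher without fraction 2 (0.50) or 3 (0.69), with the median taken over genes with no 0 (0.52), and by the 50% point (0.88), but not with size factors (0.23). The relative shift of MCM10, not called, was positive without fraction 3 (0.10), 7 (0.20) or 8 (0.05) and by the 50% point (0.10). The median control position of MCM2 to MCM7 was 5.99, ranged from 5.09 to 6.21 when each fraction was left out, and was 6.59 by the 50% point. Their median log2 ratio, 2.73 in fraction 2 and −4.14 in fraction 7, was 1.3 and −2.22 with a pseudocount of 10 and 1.34 and −1.72 with size factors. Less the median of all genes, this ratio was 1.23 in fraction 2 and −2.28 in fraction 7. With a pseudocount of 10 these differences were 0.39 and −1.59, and with size factors 1.41 and −1.67. The median relative shift of the core and its difference from MCM8 and MCM10 kept their sign and stayed past 0.5 fractions under every alternative run. Without replicates or depth, no value has a measured error.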
